A study of Rattus norvegicus with 19 samples.

Results

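Plasma small RNA of rats with mild traumatic brain injury (mTBI) was compared with that of naive rats. The comparison comprised every library titled Mild TBI (n = 5) and every library titled Naive (n = 4), which made 9 of the 19 libraries of the series. All rats were adult male Sprague-Dawley rats, tail-vein plasma was drawn under isoflurane 2 days after injury or surgery, and each library came from a different rat. Rats with mTBI had received a lateral fluid-percussion impact through a craniectomy over the left hemisphere, with local lidocaine at the incision and buprenorphine and saline afterwards. Naive rats had brief isoflurane anesthesia on the day of injury and no surgery. The impact and the operation (scalp incision, craniectomy, longer anesthesia and drugs) therefore cannot be told apart between mTBI and naive rats, and differences of the called miRNAs from 5 sham-operated rats, which had the operation without the impact, are given after those from naive rats.

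MicroRNAs (miRNAs) are short RNAs that, bound to an Argonaute protein, recognize messenger RNAs mainly through the seed, bases 2 to 8 from the 5′ end, and lower their translation or stability. They are stable in plasma inside protein complexes and vesicles, and most plasma miRNA comes from blood cells, endothelium and liver. Some miRNAs are made mainly in 1 tissue, such as miR-9 and miR-124 in brain, miR-122 in liver, and miR-1, miR-133a and miR-206 in striated muscle. For this reason, their plasma levels are studied as readouts of tissue injury.

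The files listed 748 miRNA, 104 piRNA and 386 tRNA features. Of the 748 miRNAs, 713 passed the filter on low counts and were tested. At an adjusted p under 0.05 (edgeR's quasi-likelihood test with Benjamini-Hochberg adjustment over all 713), 17 miRNAs were higher in mTBI than in naive plasma, which is 2.38% of those tested, and 0 were lower. Unadjusted p was under 0.05 for 51 miRNAs, 38 of them higher and 13 lower. DESeq2 on the same UMI counts called 18 higher and 0 lower. The median log2 fold change over all tested miRNAs was −0.05. The called miRNAs belonged to a few groups: brain-enriched miRNAs (both arms of miR-9a, and miR-129-5p), miRNAs of the Dlk1-Dio3 imprinted cluster (miR-323-3p, miR-434-3p, miR-134-5p, miR-136-3p and the opposite-strand miR-3543), striated muscle miRNAs (forms of miR-1, miR-133a and miR-206, with the opposite-strand miR-133c and miR-3571), and miR-295-3p and miR-224-3p.

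The mature sequences of the called brain-enriched and imprinted-cluster miRNAs, with miR-3543 after miR-434-3p, on whose opposite strand it lies, are shown because their seeds, in capitals, are what each would recognize in a target. Sequences and coordinates are those of RefSeq on build GRCr8, in which 675 of the 748 features and 17 of the 17 called features had a match. None of these 8 seeds was shared with another called miRNA.
miR-9a-3p: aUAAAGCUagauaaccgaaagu
miR-9a-5p: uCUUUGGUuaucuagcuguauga
miR-129-5p: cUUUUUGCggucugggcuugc
miR-434-3p: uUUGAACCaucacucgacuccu
miR-3543: cAGGAGUCgagugaugguucaaa
miR-323-3p: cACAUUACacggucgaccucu
miR-134-5p: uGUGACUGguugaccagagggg
miR-136-3p: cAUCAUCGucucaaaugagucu

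The called muscle miRNAs and their opposite-strand partners are shown because several are near copies of each other, so that reads can be assigned to more than 1 of them. The seed GGAAUGU, in capitals, was shared by miR-1-3p, miR-1b and miR-206-3p. Counting positions from 1 at the 5′ end, miR-1b differed from miR-1-3p by the single change G17A, and miR-206-3p differed from miR-1-3p by A11G, A21G and U22G. The files gave miR-133a-3p and miR-133b-3p, which differ by G22A, as 1 feature.
miR-1-3p: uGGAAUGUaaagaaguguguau
miR-1b: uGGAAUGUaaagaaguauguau
miR-206-3p: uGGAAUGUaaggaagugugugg
miR-133a-3p: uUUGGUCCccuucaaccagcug
miR-133b-3p: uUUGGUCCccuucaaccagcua
miR-133a-5p: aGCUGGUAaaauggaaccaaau
miR-133c: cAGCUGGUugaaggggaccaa
miR-3571: uACACACUucuuuacauuccaua

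The 9 libraries held 17601116 to 21517763 sequenced reads in mTBI rats and 17943600 to 19456365 in naive rats. Mature miRNAs took 3389253 to 5866757 UMIs (unique molecular identifiers, counted once per captured molecule) in mTBI libraries and 2894711 to 5041094 in naive libraries. Levels below are miRNA UMI counts in CPM (the usual scaled count unit of RNA sequencing, here with TMM scaling, a per-library factor from edgeR that evens out composition). Red cell content, measured as miR-451-5p UMIs per miR-23a-3p UMI, was 0.172 ± 0.0776 in mTBI and 0.130 ± 0.0404 in naive libraries (SD, n = 5 and 4). That difference did not pass an exact two-sided permutation test (p = 0.460, adjusted p = 0.608 over 8 library measures). The libraries with the most miRNA per spike-in RNA, mTBI 2, mTBI 5, naive 1 and naive 3, occurred in both groups. Without them 14 of the 17 calls were lost. That fit had 3 mTBI and 2 naive libraries beside the sham and other libraries of the series. The values without the 4 libraries are given with each such miRNA.

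Of the called brain-enriched miRNAs, the largest difference was that of miR-9a-3p. MiR-9a is a regulator of neural progenitors that is abundant in brain and much scarcer in other adult tissues. Levels of miR-9a-3p were 25.1, 48.8, 18.4, 26.9 and 39.8 CPM in mTBI rats 1 to 5, against 8.28, 7.41, 6.01 and 7.84 CPM in naive rats 1 to 4. The lowest mTBI library stood above the highest naive library by more than the whole naive range. The means were 31.8 ± 12.3 CPM in mTBI and 7.39 ± 0.984 CPM in naive plasma (SD), and the log2 fold change was 2.09 (SE 0.30, adjusted p = 1.12e-04). These levels rested on 69 to 163 UMIs in mTBI libraries and 17 to 33 UMIs in naive libraries.

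The other arm of the same hairpin, miR-9a-5p, had 42.6, 38.0, 26.2, 46.1 and 37.6 CPM in mTBI rats, against 14.1, 24.1, 21.2 and 17.7 CPM in naive rats. The groups did not overlap, although mTBI 3 and naive 2 were close. The log2 difference was 0.99 (SE 0.21, adjusted p = 0.00864), so both arms rose. Both arms are encoded by 3 genes, Mir9-1 and Mir9-2 on chromosome 2 and Mir9-3 on chromosome 1, with miR-9a-3p at chr2:175975025-175975046, chr2:15933344-15933365 and chr1:142849454-142849475 on the plus strand, and the counts cannot separate these genes. The call of miR-9a-5p was lost without naive 1 (adjusted p = 0.0610), with total counts as library sizes (0.0696), when only the 9 libraries were fitted (0.0722) and without the 4 libraries of most miRNA per spike-in (log2 difference 0.85, adjusted p = 0.290).

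The third called brain-enriched miRNA, miR-129-5p, is made from Mir129-2 on chromosome 3 and Mir129-1 on chromosome 4 and acts on mRNAs of neuronal ion channels. It had 16.3, 17.4, 17.4, 17.0 and 13.3 CPM in mTBI rats, against 8.03, 8.03, 7.07 and 14.7 CPM in naive rats. Naive 4 was above mTBI 5, which made miR-129-5p the 1 called miRNA of 17 whose groups overlapped. On the log2 scale mTBI exceeded naive plasma by 0.79 (SE 0.21, adjusted p = 0.0448). The call was lost without any 1 of mTBI 1, 2, 3 or 4 or naive 1, 2 or 3, with adjusted p of 0.0979 to 0.343 in those fits. It was also lost with total counts (adjusted p = 0.349), in the 9-library fit (0.401), with read counts (0.0947), with a hemolysis covariate (0.0705), with DESeq2 on read counts (0.101) and without the 4 libraries of most miRNA per spike-in (log2 difference 0.56, adjusted p = 0.661).

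Of the 51 tested members of a list of brain-enriched miRNAs, 3 were called higher (beside 2.38% of all tested miRNAs) and 0 lower, and the list's median log2 fold change was 0.04, beside −0.05 over all tested miRNAs. The list took 0.367% to 0.721% of miRNA UMIs in mTBI libraries and 0.351% to 0.812% in naive libraries. The most abundant members were not called. For miR-128-3p, a neuronal miRNA also made in blood cells, the log2 fold change was −0.16 (SE 0.23). For miR-124-3p, the predominant miRNA of neurons, levels were 7.76, 12.3, 33.7, 73.9 and 43.9 CPM in mTBI rats, against 5.52, 11.1, 6.72 and 9.88 CPM in naive rats. The group means of miR-124-3p thus differed widely, with mTBI 1 inside the naive range, and its log2 difference of 2.04 (SE 0.91, adjusted p = 0.576) did not pass the test. The oligodendrocyte miRNA miR-219a-5p was at 21.9 to 41.4 CPM in mTBI and 19.4 to 36.7 CPM in naive libraries, with a log2 fold change of 0.08.

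The arms of these hairpins did not all move. For miR-129-3p the log2 fold change was 0.18 (SE 0.38). Besides miR-9a and miR-133a, of which both arms were called, 9 opposite arms of called miRNAs were tested and 0 were called, with log2 fold changes from −0.17 for miR-136-5p to 0.45 for miR-1-5p, and miR-206-5p had 0 UMIs in each of the 9 libraries and was not tested. Most of these arms had few counts. The abundant exceptions were miR-224-5p, with 240 to 484 UMIs in mTBI and 216 to 350 UMIs in naive libraries and a log2 fold change of −0.09 (SE 0.16), and miR-323-5p, with a log2 fold change of 0.26 (SE 0.24).

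**Figure D1:**
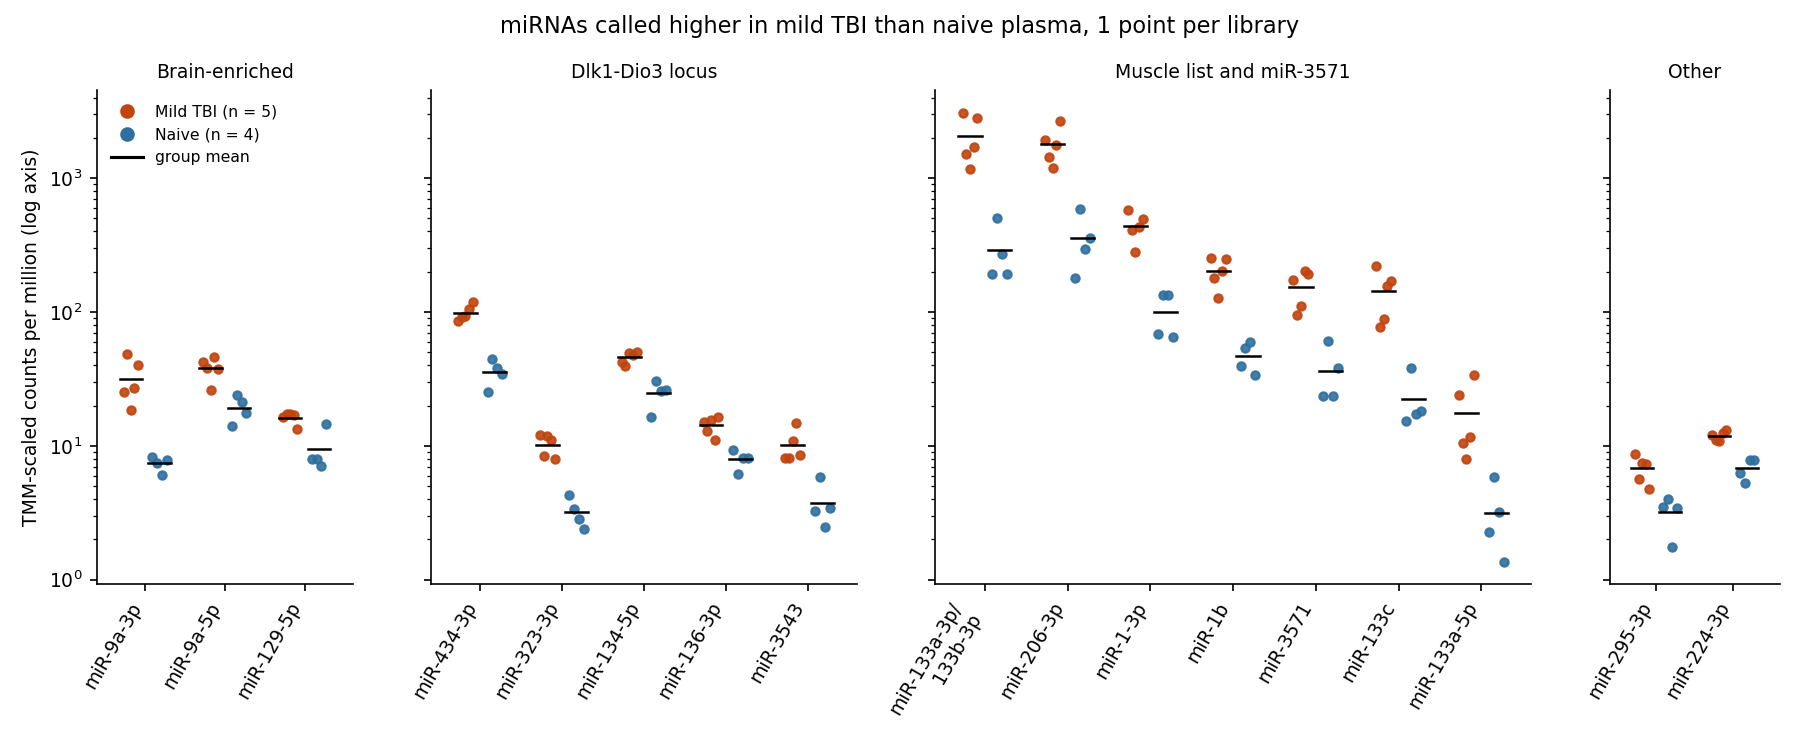
Levels of the 17 called miRNAs in each library, in TMM-scaled CPM on a log axis, with mTBI points (n = 5) left of naive points (n = 4) and black lines at group means. Muscle miRNAs spanned the highest levels (a mean of 2053 CPM for the joint miR-133a-3p and miR-133b-3p feature in mTBI plasma), and miR-129-5p was the miRNA whose groups overlapped.

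The Dlk1-Dio3 cluster is an imprinted domain whose miRNAs are transcribed from the maternal chromosome, many of them as long shared precursors, and which in adults is expressed mainly in brain, with lower expression in muscle and endocrine tissue. Levels of miR-434-3p were 85.0, 91.5, 92.7, 105.0 and 119.0 CPM in mTBI rats, against 25.1, 44.8, 38.2 and 34.4 CPM in naive rats. All 5 mTBI libraries were above all naive libraries and varied by 13.7% (coefficient of variation), against 23.1% among naive libraries. The log2 fold change was 1.47 (SE 0.20, adjusted p = 1.12e-04). The miRNA lies at chr6:134330451-134330472 on the plus strand and, in the mouse, is one of those transcribed antisense to Rtl1, a paternally expressed placental gene.

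Levels of miR-323-3p were 11.9, 8.38, 11.8, 11.0 and 8.02 CPM in mTBI rats, against 4.27, 3.40, 2.83 and 2.39 CPM in naive rats. It had the smallest p of all 713 miRNAs although it was scarce, with 28 to 60 UMIs in mTBI and 7 to 17 UMIs in naive libraries. On the log2 scale the rise was 1.64 (SE 0.22, adjusted p = 1.12e-04). It lies at chr6:134546994-134547014 on the plus strand.

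For miR-134-5p, which in rat hippocampal neurons acts at dendrites on the mRNA of the kinase Limk1, levels were 42.4, 39.8, 49.4, 47.6 and 49.9 CPM in mTBI rats, against 16.3, 30.3, 25.8 and 26.2 CPM in naive rats. The mTBI libraries, with a coefficient of variation of 9.78%, were all above the naive libraries. The log2 fold change was 0.90 (SE 0.19, adjusted p = 0.00619). The call was lost with total counts as library sizes (adjusted p = 0.0669), in the 9-library fit (0.0715) and without the 4 libraries of most miRNA per spike-in (log2 difference 0.70, adjusted p = 0.260).

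For miR-136-3p, another miRNA antisense to Rtl1 in the mouse, levels were 15.1, 12.9, 15.5, 11.0 and 16.5 CPM in mTBI rats, against 9.29, 6.18, 8.13 and 8.18 CPM in naive rats. The groups were separate but near, mTBI 4 being the lowest injured rat and naive 1 the highest naive rat. On the log2 scale the rise was 0.84 (SE 0.20, adjusted p = 0.0198). The call was lost without any 1 of mTBI 1, 3 or 5 or naive 2, 3 or 4, with adjusted p of 0.0530 to 0.155 in those fits. It was also lost with total counts (adjusted p = 0.0803), with spike-in totals as library sizes (0.0640), in the 9-library fit (0.0722) and without the 4 libraries of most miRNA per spike-in (log2 difference 0.94, adjusted p = 0.260).

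Of 81 tested miRNAs listed for the cluster, 4 were called higher (beside 2.38% of all tested miRNAs) and 0 lower, with a median log2 fold change of 0.14 and values above 0 for 48. Every mTBI library was above every naive library for 10 of the 81. Over all 713 tested miRNAs, such separation was seen for 31 (4.35%) upwards and for 4 (0.561%) downwards. Besides the 4 called members, the separated members were miR-494-3p, miR-127-3p, miR-487b-3p, miR-379-5p, miR-665 and miR-382-3p, with log2 fold changes of 0.71, 0.43, 1.06, 0.38, 0.62 and 0.65 and adjusted p of 0.154 to 0.961. The last 4 of these were chosen after their values were seen. The most abundant members did not pass the test. Levels of miR-379-3p averaged 384.2 CPM in mTBI plasma, with a log2 fold change of −0.39 (SE 0.27), and for miR-411-5p it was −0.51 (SE 0.23).

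Along the chromosome, the called miRNAs were not confined to 1 end of the cluster. The window from Mir770 to Mir410, chr6:134298084-134579838, spanned 281.8 kb and held 95 listed miRNAs. Of these 89 were tested, with a median log2 fold change of 0.13, and 5 were called (beside 2.38% of all tested miRNAs), 4 on the plus strand and miR-3543 on the minus strand. Near the called miRNAs stood neighbors with small differences, such as the other arm of the miR-434 hairpin, miR-434-5p, at 0.43 (SE 0.26).

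**Figure D2:**
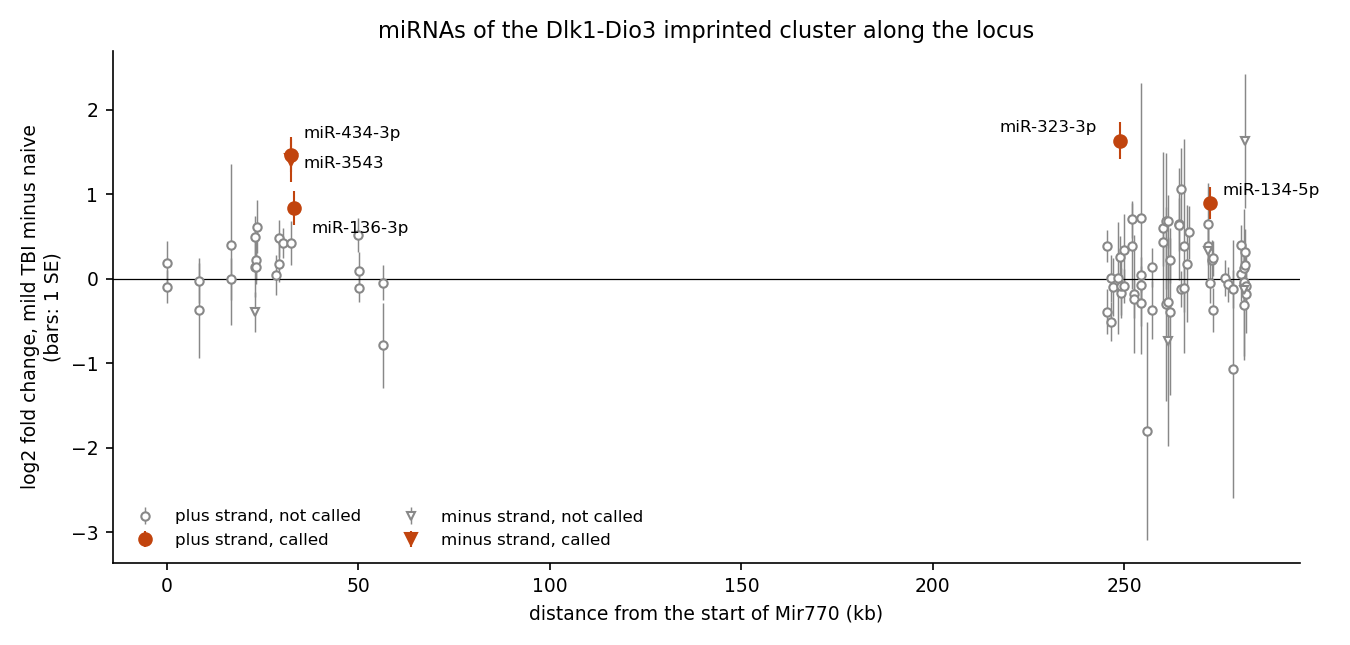
Log2 fold change (mTBI minus naive) of the tested miRNAs of the Mir770 to Mir410 window against distance from the start of Mir770 in kb, with bars of 1 SE, circles for the plus strand and triangles for the minus strand, filled where called. The called miR-434-3p, miR-3543 and miR-136-3p lie together in the first group, and miR-323-3p and miR-134-5p lie in the second.

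The striated muscle miRNAs had the largest differences among the called miRNAs. They control muscle differentiation, miR-206 being made in skeletal muscle and miR-1 and miR-133a in both skeletal muscle and heart. For miR-133a-3p, counted jointly with miR-133b-3p, levels were 3073, 1511, 1175, 1699 and 2806 CPM in mTBI rats, against 191.0, 499.8, 271.1 and 193.9 CPM in naive rats. The lowest mTBI library was above the highest naive library, and the mTBI libraries varied by 40.7% (coefficient of variation). The log2 fold change was 2.83 (SE 0.40, adjusted p = 1.12e-04), the largest of the 17.

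The skeletal muscle miRNA miR-206-3p, at chr9:30590747-30590768, had 1919, 1447, 1184, 1767 and 2653 CPM in mTBI rats, against 180.0, 584.5, 297.6 and 356.1 CPM in naive rats. The groups did not overlap, and naive 2 was the highest naive library, as for the miR-133a-3p and miR-133b-3p feature. The log2 fold change was 2.34 (SE 0.47, adjusted p = 0.00617).

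For miR-1-3p, levels were 581.5, 407.5, 280.2, 434.8 and 495.7 CPM in mTBI rats, against 68.3, 133.5, 133.98 and 64.7 CPM in naive rats. All naive libraries were below the lowest mTBI library, mTBI 3, and the log2 fold change was 2.14 with an SE of 0.41 (adjusted p = 0.00299). Its near copy miR-1b had a log2 fold change of 2.11 (SE 0.33), and miR-133a-5p, with at least 30 UMIs in each mTBI and at most 19 UMIs in each naive library, had 2.47 (SE 0.51). The median over the 6 called members of the list, as a log2 ratio to the naive mean, was highest in mTBI 5 (2.92) and mTBI 1 (2.73) and lowest in mTBI 3 (1.61), and among naive rats it ranged from −0.55 to 0.75. Some of these 6 share reads or precursors, so they are not separate measurements.

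The differences of the muscle miRNAs were mostly of similar size without the 4 libraries of most miRNA per spike-in, but none passed the test. That fit kept 3 mTBI and 2 naive libraries, and the other libraries of the series also entered its spread. The joint miR-133a-3p and miR-133b-3p feature then had a log2 difference of 2.51, beside 2.83 (adjusted p = 0.100), miR-1b one of 2.13, beside 2.11 (adjusted p = 0.100), and miR-1-3p one of 2.11, beside 2.14 (adjusted p = 0.280). For miR-133c the value was 2.45, beside 2.68 (adjusted p = 0.125). Those of miR-206-3p and miR-133a-5p were 1.77 (adjusted p = 0.589) and 1.98 (adjusted p = 0.367), beside 2.34 and 2.47.

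Of 13 tested members of the muscle list, 6 were called higher, beside 2.38% of all tested miRNAs (17 of 713), and 0 lower. The list took 0.287% to 0.691% of miRNA UMIs in mTBI libraries and 0.0425% to 0.150% in naive libraries. Its median log2 fold change was 1.08. The members not called included those encoded within cardiac and slow myosin genes: miR-208a-3p (log2 fold change 0.00, with 2.09 to 6.37 CPM in mTBI and 3.89 to 4.94 CPM in naive libraries), miR-208b-3p (0.80, SE 0.32, adjusted p = 0.526) and miR-499-5p (−0.36, SE 0.42). In bulk plasma, release from more cells and release of more RNA per cell cannot be told apart.

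Of the called miRNAs, 3 lie on the opposite strand over the bases of a more abundant called miRNA: miR-133c opposite miR-133a-3p (21 shared bases), miR-3571 opposite miR-1-3p (21 bases) and miR-3543 opposite miR-434-3p (22 bases). The sources used here do not state whether reads were counted by strand, so the UMIs of each pair cannot be told apart with certainty. Set against the UMIs of the joint feature, which also counts the chromosome 9 miRNA miR-133b-3p, those of miR-133c came to 5.11% to 9.28% in mTBI libraries and 6.39% to 9.31% in naive libraries. The UMIs of miR-3543 came to 7.16% to 14.0% in mTBI and 6.48% to 13.1% in naive libraries, relative to those of miR-434-3p, and the UMIs of miR-3571 to 23.3% to 46.7% in mTBI and 17.7% to 58.9% in naive libraries, relative to those of miR-1-3p. In each pair the ratio overlapped between the groups. Their log2 fold changes, 2.68 (SE 0.44) for miR-133c, 2.08 (SE 0.51) for miR-3571 and 1.41 (SE 0.26) for miR-3543, stood near those of their partners, 2.83, 2.14 and 1.47. The call of miR-3571 was lost without any 1 of mTBI 1, 4 or 5 or naive 1, 3 or 4, with adjusted p of 0.0837 to 0.216, with total counts as library sizes (0.117) and without the 4 libraries of most miRNA per spike-in (log2 difference 1.70, adjusted p = 0.661). Without those 4 libraries miR-3543 differed by 1.23 (adjusted p = 0.100).

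The remaining called miRNAs belonged to none of these groups. For miR-295-3p, of a cluster known from mouse embryonic stem cells, levels were 8.76, 5.68, 7.48, 7.36 and 4.76 CPM in mTBI rats, against 3.51, 4.02, 1.77 and 3.41 CPM in naive rats, a log2 difference of 1.08 (SE 0.28, adjusted p = 0.0360). For miR-224-3p, which lies in an intron of the GABA receptor subunit gene Gabre in mammals, levels were 11.9, 11.1, 11.0, 12.5 and 13.0 CPM in mTBI rats, against 6.28, 5.25, 7.78 and 7.84 CPM in naive rats, a log2 difference of 0.82 (SE 0.22, adjusted p = 0.0478). Both were separate between the groups and both were close to the threshold. The call of miR-224-3p was lost on leaving out any 1 of the 9 libraries (adjusted p of 0.0614 to 0.256). That of miR-295-3p was lost without any 1 of mTBI 1, 3 or 4 or naive 1, 2, 3 or 4 (adjusted p of 0.0612 to 0.269). Both calls were also lost in 6 or more other settings, with the highest adjusted p without the 4 libraries of most miRNA per spike-in (0.260 for miR-295-3p and 0.504 for miR-224-3p, at log2 differences of 1.06 and 0.83). Of the named miRNAs that were not called, 3 gained a call, each in a single setting: miR-494-3p with DESeq2 on UMI counts (adjusted p = 0.0494, beside 0.154), miR-127-3p with DESeq2 on read counts of the 9 libraries (adjusted p = 0.0373) and miR-15a-3p with counts under 10 set to 0 (adjusted p = 0.00517). Naive libraries had at most 9 UMIs of miR-15a-3p and mTBI libraries at least 12. The cutoff thus emptied only the naive side, and the call follows from it.

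The same fit gave the differences from sham-operated rats, which share the mTBI libraries with the comparison above. Between mTBI and sham plasma 1 of 713 miRNAs (0.14%) was called, miR-9a-3p, and 81 had an unadjusted p under 0.05. Its levels in sham rats were 5.44, 8.46, 11.2, 14.1 and 11.0 CPM, and the mTBI minus sham log2 fold change was 1.66 (adjusted p = 0.00262). All 5 sham rats were below the lowest mTBI rat. For miR-9a-5p and miR-129-5p the mTBI minus sham log2 fold changes were 0.52 (adjusted p = 0.366) and 0.78 (adjusted p = 0.135), beside sham minus naive values of 0.46 (adjusted p = 0.239) and 0.01 (adjusted p = 0.981). For miR-9a-3p sham minus naive was 0.43 (adjusted p = 0.450). Between sham and naive plasma 17 of 713 miRNAs (2.38%) were called, 15 higher and 2 lower in sham, the lower ones being miR-488-3p and miR-379-3p.

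Of the called imprinted-cluster miRNAs, all were called between sham and naive plasma and none between mTBI and sham plasma. For miR-434-3p, mTBI minus sham was 0.20 (adjusted p = 0.584) and sham minus naive was 1.27 (adjusted p = 0.00110). For miR-136-3p they were 0.00 (adjusted p = 0.989) and 0.83 (adjusted p = 0.0242), and for miR-134-5p −0.21 (adjusted p = 0.565) and 1.10 (adjusted p = 0.00156), with 47.2 to 60.7 CPM in sham rats. For miR-323-3p they were 0.46 (adjusted p = 0.398) and 1.18 (adjusted p = 0.00231), with 5.74 to 9.06 CPM in sham rats, and for miR-3543 −0.05 (adjusted p = 0.915) and 1.45 (adjusted p = 0.00165).

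The muscle miRNAs were at 823.0 to 2374 CPM (the joint miR-133a-3p and miR-133b-3p feature) and 981.5 to 5523 CPM (miR-206-3p) in sham rats. For the joint feature, mTBI minus sham was 0.36 (adjusted p = 0.592) and sham minus naive was 2.47 (adjusted p = 0.00110), and for miR-206-3p they were −0.39 (adjusted p = 0.627) and 2.73 (adjusted p = 0.00165). For miR-1-3p they were 0.37 (adjusted p = 0.592) and 1.77 (adjusted p = 0.0159), and for miR-1b 0.38 (adjusted p = 0.549) and 1.74 (adjusted p = 0.00231). For miR-133c they were 0.19 (adjusted p = 0.804) and 2.49 (adjusted p = 0.00165), and for miR-3571 −0.36 (adjusted p = 0.680) and 2.45 (adjusted p = 0.0117). The sham minus naive value of miR-133a-5p, 1.80, did not pass the test (adjusted p = 0.0743), beside 0.67 for mTBI minus sham (adjusted p = 0.465). Neither contrast passed for miR-295-3p, at 0.26 (adjusted p = 0.584) and 0.82 (adjusted p = 0.129), or for miR-224-3p, at 0.45 (adjusted p = 0.399) and 0.37 (adjusted p = 0.380). A p above the threshold does not show that mTBI and sham plasma were alike.

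**Figure D3:**
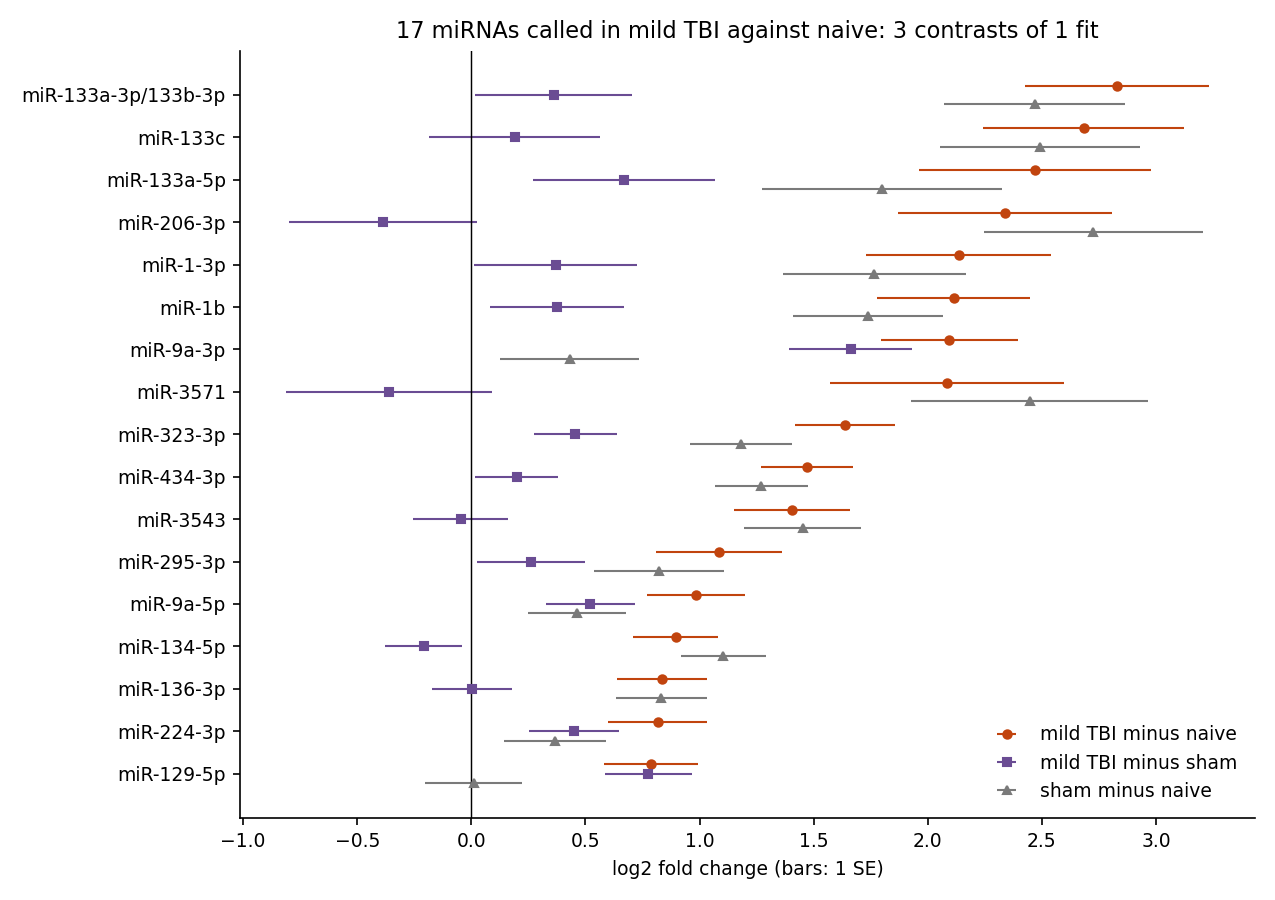
Log2 fold changes of the 17 called miRNAs with bars of 1 SE in 3 contrasts of 1 fit that share libraries: mTBI minus naive (circles), mTBI minus sham (squares) and sham minus naive (triangles). The square of miR-9a-3p is at 1.66, and the squares of the muscle miRNAs lie between −0.39 and 0.67.

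The 5 miRNAs that the study took to PCR included 2 that were not called in these counts, miR-153-3p and miR-15a-3p. According to the study, its own expression test did not list them either. Its PCR of the same RNA gave no significant difference for them among naive, sham and mTBI rats. The other PCR miRNAs, miR-434-3p, miR-136-3p and miR-9a-3p, were called here. By that PCR each was significantly higher in mTBI than in naive rats. In the study's whole cohort, droplet PCR also gave significantly more miR-434-3p after mTBI than after sham surgery, while real-time PCR did not. That contrast did not pass the test in these counts (adjusted p = 0.584). For miR-153-3p, a neuronal miRNA, the log2 fold change was 0.44 (SE 0.34, adjusted p = 0.961) on 17 to 30 UMIs in mTBI and 12 to 15 UMIs in naive libraries. For miR-15a-3p it was 1.17 (SE 0.65, adjusted p = 0.808) on 12 to 18 UMIs in mTBI and 0 to 9 UMIs in naive libraries. The 0 was in naive 2, where no miRNA had a count between 0 and 10, so a low count there may be listed as 0. The PCR reference miR-28-3p had a log2 fold change of −0.05 (SE 0.25), with 429.4 to 966.3 CPM in mTBI and 509.5 to 918.1 CPM in naive libraries.

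No miRNA fell by the test. The lowest adjusted p among lower miRNAs was 0.269 for miR-488-3p, a neural miRNA, at 9.16, 10.8, 8.01, 12.7 and 9.77 CPM in mTBI rats, against 13.8, 13.3, 27.6 and 15.0 CPM in naive rats. Its groups did not overlap, and naive 3 was far above the other naive rats. For miR-215, of the liver and gut miR-192 family, the log2 fold change was −0.74 (SE 0.26, adjusted p = 0.332), with 1531 to 2763 CPM in mTBI and 3401 to 4261 CPM in naive libraries. The log2 fold changes of miR-140-5p, a cartilage miRNA, and miR-6325 were −0.54 and −0.75 (adjusted p = 0.400 for both).

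The major tissue and blood cell lists had no called member in either direction. Liver miRNAs had a median log2 fold change of −0.24 over 19, erythrocyte miRNAs 0.06 over 17, leukocyte miRNAs −0.02 over 16, and platelet miRNAs −0.04 over 15. Smooth muscle, fibroblast and endothelial miRNAs had −0.18 over 22, and epithelial and endocrine miRNAs had −0.11 over 25. Every mTBI library was above every naive library for 3 leukocyte miRNAs and 1 liver miRNA, beside 4.35% of all tested miRNAs, and below for 1 liver miRNA. The leukocyte ones included miR-223-3p (38860 to 42570 CPM in mTBI, 23180 to 36654 CPM in naive libraries). The other lists of this paragraph had no such member. These lists held most of the counts, the erythrocyte list alone taking 18.3% to 38.0% of miRNA UMIs in mTBI and 18.0% to 38.5% in naive libraries. The liver-specific miR-122-5p made up 2.19% to 13.9% of miRNA UMIs in mTBI and 1.86% to 12.7% in naive libraries, with a log2 fold change of 0.03 (SE 0.73). For miR-223-3p, the granulocyte miRNA, it was 0.43 (SE 0.19, adjusted p = 0.573), and for miR-143-3p of smooth muscle −0.64 (SE 0.92). The spread of miR-122-5p and miR-143-3p between rats of 1 group was thus larger than the difference between the groups. Shares of miR-122-5p were 8.34% to 13.9% in the 4 libraries of most miRNA per spike-in and 1.86% to 4.79% in the others. Those of miR-143-3p were 5.43% to 10.1% and 0.723% to 2.01%. The cause of this split was not tested.

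**Figure D4:**
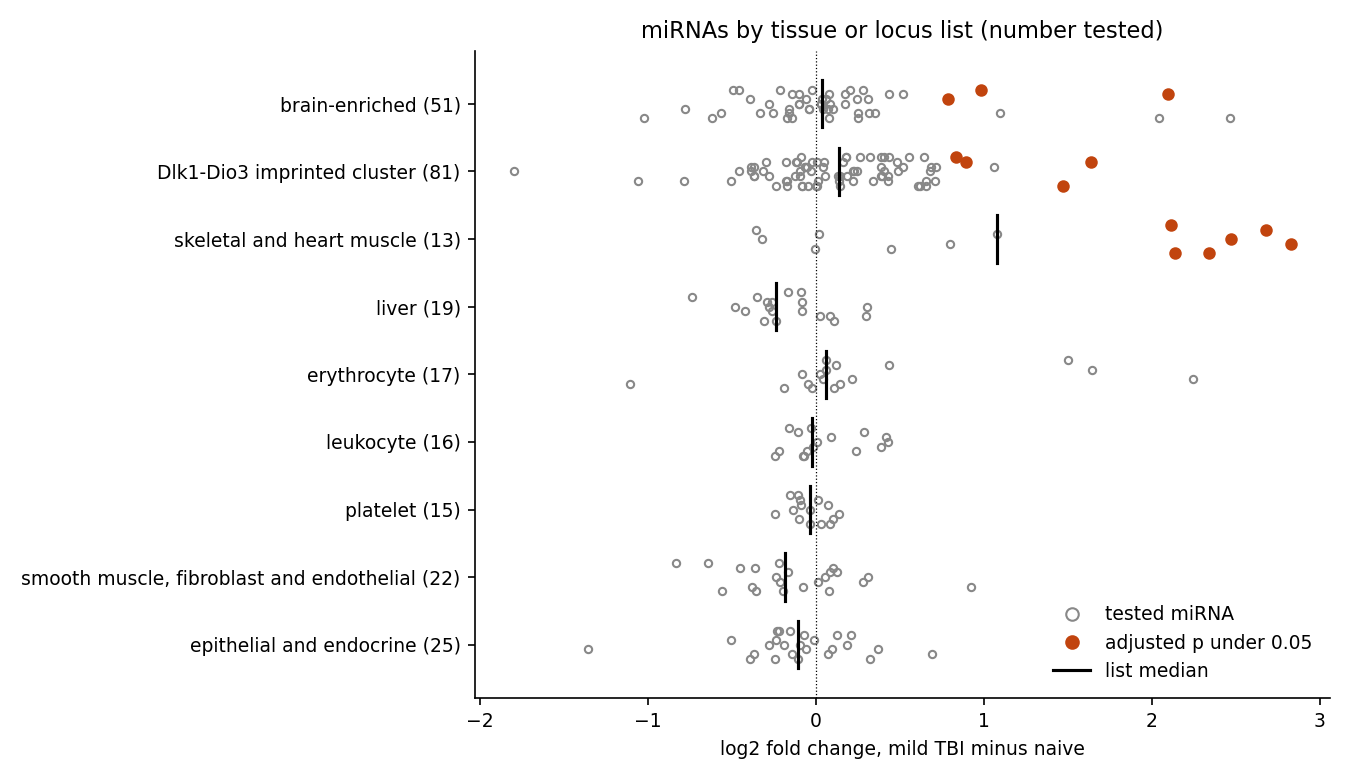
Log2 fold change (mTBI minus naive) of each tested miRNA in 9 lists of tissue or locus, with filled points for called miRNAs and a black line at each list's median. The muscle list had its median at 1.08, and the other medians lay between −0.24 and 0.14.

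The 4 libraries with the most miRNA per spike-in RNA had 16.8 (mTBI 2), 12.6 (mTBI 5), 12.7 (naive 1) and 15.0 (naive 3) miRNA UMIs per spike-in UMI, and the other 5 had 6.64 to 9.13. The ratio averaged 10.7 ± 4.05 in mTBI and 10.4 ± 4.12 in naive libraries (exact permutation p = 0.881). With the 4 left out, which leaves 3 mTBI and 2 naive libraries, 3 miRNAs were called: miR-323-3p, miR-434-3p and miR-9a-3p. The other 14 kept positive differences, of 0.56 to 2.51 on the log2 scale, with adjusted p of 0.100 to 0.661. The largest adjusted p of these 3 over all 21 alternative settings were 0.00540, 0.0304 and 0.0380. All 17 called miRNAs had a higher mTBI than naive mean both within those 4 libraries and within the other 5. That describes the libraries on which the calls were made and is no separate test.

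Transfer RNA fragments are cut from tRNA in stressed cells and circulate largely as 5′ fragments of glycine and glutamate tRNA. There were 0.312, 1.41, 0.915, 0.464 and 0.519 tRNA UMIs per miRNA UMI in mTBI rats, against 0.722, 1.67, 1.53 and 1.48 in naive rats. Naive 1 lay among the mTBI libraries, and mTBI 2 near the other naive libraries. The log2 difference of −1.04 did not pass the exact permutation test (p = 0.0952, adjusted p = 0.381 over 8 measures). The smallest p that dividing 9 libraries this way allows is 0.0159.

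Within the tRNA table, scaled to itself, 1 of 332 tested features (0.301%) was called, Chr13.trna3809-GluCTC, which was lower in mTBI plasma. Unadjusted p was under 0.05 for 51 features, 17 higher and 34 lower. The called glutamate feature had 21440, 33967, 29694, 9756 and 23389 UMIs in mTBI rats, against 40072, 120232, 105239 and 120714 UMIs in naive rats. All mTBI counts were below all naive counts. As a share of tRNA UMIs it was 0.873% ± 0.393 in mTBI and 2.02% ± 0.774 in naive libraries, where mTBI 1 (1.55%) was above naive 1 (1.10%), and the log2 difference was −2.20 (SE 0.40, adjusted p = 0.00504). The call was lost with spike-in totals as library sizes (−2.08, adjusted p = 0.217) and when only the 9 libraries were fitted (−2.17, adjusted p = 0.114).

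Histidine tRNA features had a median log2 fold change of −1.12, with an unadjusted p under 0.05 for 12 of 12, and 0 of them were called. The most abundant, Chr2.trna4128-HisGTG, had 6355 to 18444 UMIs in mTBI and 15437 to 49376 UMIs in naive libraries (log2 fold change −1.70, SE 0.44, adjusted p = 0.0793). Copies of 1 tRNA gene are nearly identical and share reads, so these 12 are not independent. Together they made up 0.879% ± 0.284 of tRNA UMIs in mTBI and 1.17% ± 0.501 in naive libraries. Glutamate features had a median of −0.68 and GlyGCC features −0.63, beside 0.12 over all tRNA features tested, while glycine features together held 74.4% ± 6.15 of tRNA UMIs in mTBI and 72.2% ± 6.15 in naive libraries. These medians depended on the scaling: with total tRNA counts as library sizes the median over all tRNA features was 1.03, the HisGTG median −0.13, the glutamate median 0.01 and the GlyGCC median 0.12, and 21 features were called higher and 1 lower, beside 0 and 1 above. With RLE factors, spike-in totals or miRNA factors the HisGTG median was −1.32 to −1.13. The glutamate median was then −0.87 to −0.62 and the GlyGCC median −0.80 to −0.55. The number of calls also turned on single libraries, with 10 calls without mTBI 2, 12 without naive 1 and 7 without naive 3.

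**Figure D5:**
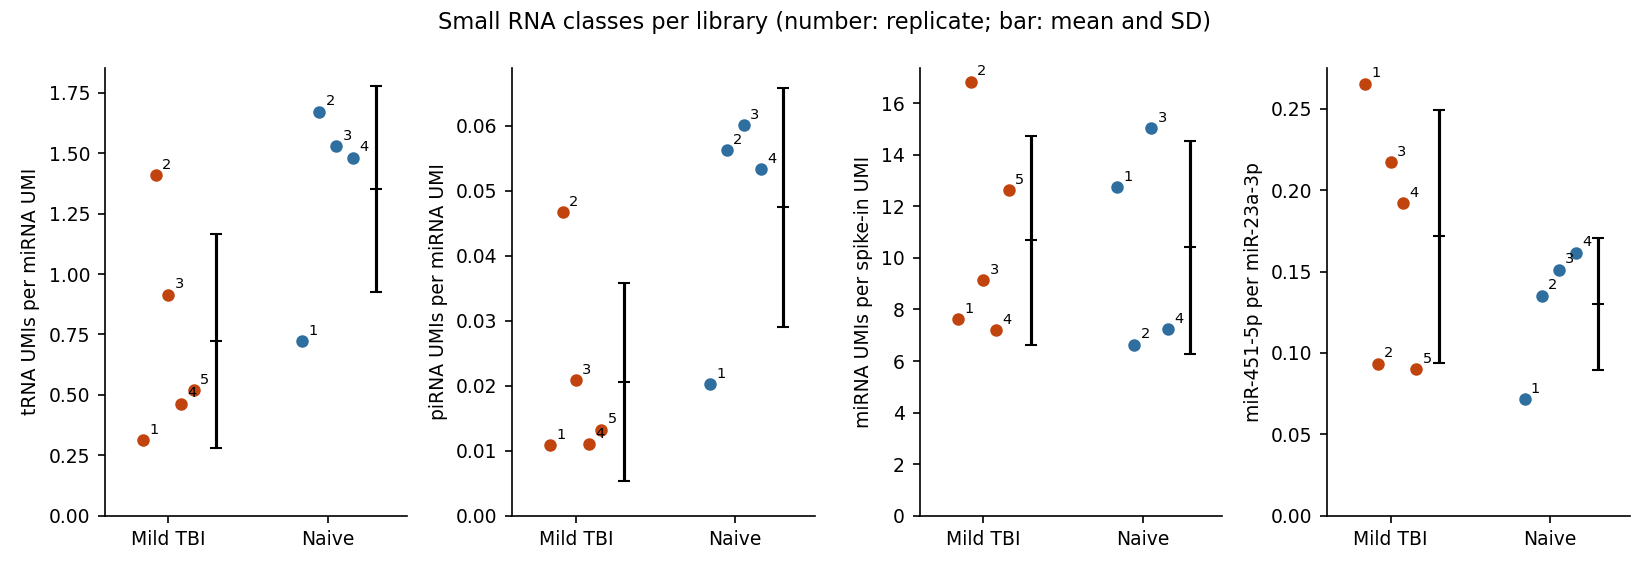
Ratios of UMI totals in each library, numbered by replicate, with mTBI (n = 5) left of naive (n = 4) and a bar at the mean and SD. In the tRNA and piRNA panels mTBI 2 stands with the naive libraries and naive 1 with the mTBI libraries, and the miRNA to spike-in ratio spans 7.20 to 16.8 in mTBI and 6.64 to 15.0 in naive libraries.

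Features annotated as piRNAs, named for the germline RNAs that bind Piwi proteins, were scarcer than tRNA fragments, with 0.0109, 0.0467, 0.0208, 0.0110 and 0.0132 UMIs per miRNA UMI in mTBI rats, against 0.0202, 0.0562, 0.0600 and 0.0534 in naive rats. The order of libraries was much like that of the tRNA ratio, and the log2 difference was −1.34 (exact permutation p = 0.0476, adjusted p = 0.381). Of 77 tested piRNA features 1 (1.3%) was called, rno_piR_001200, lower in mTBI plasma by a log2 difference of −1.60 (SE 0.38, adjusted p = 0.0376), and 7 had an unadjusted p under 0.05. It had 18, 53, 31, 11 and 31 UMIs in mTBI rats, against 41, 84, 75 and 83 UMIs in naive rats, so that mTBI 2 was above naive 1. Its share of piRNA UMIs was 0.0346% ± 0.00596 in mTBI and 0.0440% ± 0.0107 in naive libraries. Most piRNA UMIs belonged to 1 feature, rno_piR_001199, which took 57.7% ± 9.47 in mTBI and 73.3% ± 4.80 in naive libraries (log2 fold change −1.44, SE 0.50, adjusted p = 0.213). With total piRNA counts as library sizes, 33 features were called higher and 1 lower, beside 0 and 1 above, and the median over all piRNA features was 1.60, beside 0.06. The lower one was not rno_piR_001200, whose call was lost there (log2 difference −0.34, adjusted p = 0.525). Scaling with RLE factors, spike-in totals or miRNA factors also lost it (adjusted p of 0.0535 to 0.462). So did read counts, no filter, the 9-library fit and counts under 10 set to 0 (adjusted p of 0.0545 to 0.261). The call of rno_piR_001200 was lost without any 1 of mTBI 1, 3, 4 or 5 or naive 2, 3 or 4 (adjusted p of 0.0822 to 0.237), with 0 calls in these fits, and the number of piRNA calls was 6 without mTBI 2 and 2 without naive 1.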

How the data were processed

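Small RNA of tail-vein plasma was sequenced by the authors with a QIASeq library kit that tags each molecule with a UMI, after isolation from 200 µL plasma per rat. According to the submitters' processing notes and the study's methods, reads were trimmed with cutadapt and aligned with Bowtie to Rnor_6.0 and miRBase. The deposited files hold raw counts, as UMI counts and read counts per feature; UMI counts were used. A table of other RNA classes was not used here. One further naive library failed at preparation, according to the methods. edgeR 4.0.16 in R 4.3.3 (quasi-likelihood test, TMM factors within each RNA class, filterByExpr with a minimum count of 10) was fitted to all 19 libraries in 1 fit per class, with Benjamini-Hochberg adjustment over every tested feature and a threshold of 0.05. DESeq2 1.42.0 was an alternative; the study used DESeq2 on read counts. Library measures were tested by exact permutation. On simulated miRNA counts with known changes, the same fit recovered 22.7% of 1.5-fold, 63.3% of 2-fold and 88.5% of 4-fold changes. Of its calls there, 3.49% were false. Over 5 runs of 713 miRNAs each, 335 were altered 1.5-fold, 335 were altered 2-fold and 330 were altered 4-fold. Only 17 of 713 miRNAs were called between mTBI and naive plasma, a much smaller share. These rates therefore need not hold for this comparison. Changes of 2-fold or less can be missed. Named miRNAs were all called ones and their opposite arms, the study's PCR miRNAs, the 3 most abundant of each list and the smallest p values not called; miRNAs outside this rule are members of the fixed marker and tissue lists or are marked in the text. The comparison, its members and the lists were chosen with earlier results of these data known. The 2 alternatives that omit 4 libraries or set counts under 10 to 0 were added after seeing the data, because the lowest count above 0 was 10 in mTBI 1, mTBI 5 and naive 2, and 1 to 4 in the other 6 libraries. Group means and SDs rest on 5 and 4 rats, while SEs and adjusted p take their spread from the fit of all 19 libraries. UMI counts cover captured molecules, not losses before tagging.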

Additional observations from a re-analysis of the deposited data

Results flagged for a closer look

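In 12 of 168 groups examined, 1 library stood far from the others of its group, and chance alone would give about 1 in 20. Naive 1 had 4 of these: miR-203a-3p at 7486 CPM (650 to 1788 in the other naive libraries) and miR-205 at 4841 CPM (725 to 1118), both epithelial miRNAs, miR-128-3p at 3600 CPM (6356 to 6643), and 0.02019 piRNA UMIs per miRNA UMI (0.05335 to 0.06005). Naive 2 had 38.31 CPM of miR-133c (15.31 to 18.06) and 0 CPM of miR-15a-3p (2.259 to 2.474). Naive 3 had 27.57 CPM of miR-488-3p (13.28 to 14.99), and naive 4 had 14.65 CPM of miR-129-5p (7.07 to 8.034).

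Among mTBI libraries, mTBI 2 had 174400 CPM of miR-16-5p (222900 to 241000 in the other mTBI libraries) and 0.04671 piRNA UMIs per miRNA UMI (0.01088 to 0.02082). The level of miR-874-3p in mTBI 3 was 154.4 CPM (107.5 to 117.5), and that of miR-129-5p in mTBI 5 was 13.28 CPM (16.33 to 17.36). Within miR-129-5p both groups therefore had a library that lay toward the other group.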

How the results depend on the processing

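With total counts as library sizes 10 miRNAs were called, in a fit of the 9 libraries alone 11, and with the 4 libraries of highest miRNA to spike-in ratio omitted 3. Other settings gave 14 to 18, and leaving out 1 library 12 to 15. Over 57 named miRNAs and 21 alternatives, 1118 of 1197 comparisons kept direction and side of the threshold, 76 lost a call, 3 gained one and 0 reversed, and miR-323-3p, miR-434-3p and miR-9a-3p were called in all 21. For tRNA features the calls were 22 with total counts, 0 with spike-in totals, 6 with miRNA factors, 0 in the 9-library fit, 17 with DESeq2, 40 without the 4 libraries, and 1 to 12 on leaving out 1 library. For piRNA features they were 0 with RLE factors, 34 with total counts, 0 with spike-in totals, 0 with read counts, 0 with no filter, 0 in the 9-library fit, 2 with DESeq2, 2 without the 4 libraries, and 0 to 6 on leaving out 1 library. With miRNA factors, and with counts under 10 set to 0, the 1 piRNA call was a higher one. The piRNA counts of 0 came with 4 to 12 features at an unadjusted p under 0.05, and the tRNA counts of 0 with 19 and 21. The cause of these changes was not tested. Library measures kept their side of the threshold in each alternative. Replicate numbers did not pair the samples (correlations of deviations −0.22, −0.42, −0.46 and 0.18). With the replicate block 15 miRNAs, 1 tRNA feature and 1 piRNA feature were called. Counts were low for some called miRNAs, with 7 to 17 UMIs of miR-323-3p in naive libraries.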

Other observations

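The shares of the most abundant plasma miRNAs, miR-16-5p, miR-122-5p and miR-486, differed by less than the spread between rats. The most abundant miRNA, the erythrocyte-rich miR-16-5p, took 20.6% ± 5.46 of miRNA UMIs in mTBI and 19.4% ± 4.53 in naive libraries, followed by miR-122-5p at 7.18% ± 5.67 in mTBI and 6.92% ± 4.68 in naive libraries (SD, n = 5 and 4). Next came miR-486, at 6.87% ± 3.45 in mTBI and 6.44% ± 3.83 in naive libraries. Its share was 2.74% to 3.81% in the 4 libraries of most miRNA per spike-in and 8.32% to 10.9% in the others. Of the 748 miRNAs, 631 were counted in each of the 9 libraries and 2 in none. No miRNA was counted in all libraries of 1 group and in none of the other, so that the called miRNAs differed in level, not in presence. The typical spread was of similar size in the 2 groups, with a median coefficient of variation of 28.3% in mTBI and 31.1% in naive libraries over the tested miRNAs.

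Several tRNA isotypes other than glycine, glutamate and histidine had positive log2 fold changes within the tRNA table, such as isoleucine (11 of 11 features above 0, median 0.52) and glutamine (12 of 13, median 0.34). Of the isoleucine and glutamine features, 0 had an unadjusted p under 0.05. Over all 332 tested tRNA features, 199 were above 0 and 17 were higher at an unadjusted p under 0.05. Leucine tRNA made up 1.34% ± 0.515 of tRNA UMIs in mTBI and 0.818% ± 0.613 in naive libraries. These shares are tied to each other, since glycine and glutamate tRNA took most of the UMIs.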
